A study of Homo sapiens with 16 samples.

Results

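The 32 genes described here encode cathepsins, other lysosomal proteins and components of autophagy, and they were picked by gene name from the 58735 genes of the count table. They comprise 8 cysteine cathepsins, 2 aspartic or serine cathepsins, 5 lysosomal membrane proteins, 5 glycosidases and a sialidase counted together, 3 lipid-handling proteins, the precursor of the granulins, 3 autophagy adaptors or ATG8-family proteins, 2 ATG9 scramblases, the transcription factor TFEB and 2 subunits of the vacuolar proton pump. All 32 passed the filter on low counts in each of the 3 edgeR models used for the tests, so none was left untested. For BT474, CTSS was tested only through other lines in the same models, since each BT474 library held 0 to 6 counts of it.

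Gene expression was measured by RNA sequencing in human breast cancer cell lines. HCC1806 was grown as spheroids for 10 or 20 days after seeding and as a flat monolayer, BT474 likewise, and CAL148 and ZR-75-30 as monolayers alone, with 2 libraries in each of the 8 groups. By general knowledge, not by any label, HCC1806 and CAL148 are triple-negative lines, and BT474 and ZR-75-30 carry ERBB2 amplification. HCC1806 and ZR-75-30 grew in RPMI and BT474 and CAL148 in DMEM, both with 10% fetal bovine serum, so line and medium cannot be told apart between HCC1806 and BT474. No allele, drug or transgene is named for any group. Each line is 1 established culture model, and the labels do not say whether the replicates were separate cultures, so the p-values measure the spread between these libraries, which may be technical. A treatment label names monolayer culture for all 16 libraries, and the groups were therefore taken from the sample titles.

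Lysosomes are acidic organelles in which cathepsins cut proteins and other hydrolases break down sugars and lipids, while a proton pump in the membrane keeps the lumen acid. Autophagy delivers cytoplasmic cargo to them: adaptors such as SQSTM1 (p62) bind the cargo, ATG8-family proteins such as MAP1LC3B and GABARAPL1 coat the growing membrane, and ATG9 proteins move lipid between its leaflets. TFEB binds a CACGTG-type element, named CLEAR, in the promoters of many of these genes, and cathepsins are also secreted by tumour cells and cleave matrix.

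The promoter windows of the members show where this element lies. RefSeq (GRCh38.p14) windows of 300 bases, 250 before the start site and 50 from it, were matched for 26 of the 32 genes by symbol. The 8-base element TCACGTGA, searched on both strands, was in 5 of the 41 windows of these genes, those of CTSA, LAMP1, MCOLN1, GAA and ATP6V0D1, and in 0.98% of 35116 windows of all genes. Its 6-base core CACGTG, which lies within it, was in 9 of the 41 windows, and in 7.26% of all windows. The element TGACNNNGC, named the antioxidant response element, was in 15 of the 41 windows and in 13.3% of all windows; in GAA and LAMP1 a copy shares 2 bases with a CACGTG core. The 5 stretches below run from 100 bases before the start site to 10 bases from it, 5′ to 3′ on the strand of the gene, and are shown because they carry the 8-base element; capitals mark each copy. They lie at chr17:80101481-80101590 (plus strand, GAA), chr19:7522524-7522633 (plus, MCOLN1), chr20:45891235-45891344 (plus, CTSA), chr13:113297139-113297248 (plus, LAMP1) and chr16:67481148-67481257 (minus, ATP6V0D1).
GAA: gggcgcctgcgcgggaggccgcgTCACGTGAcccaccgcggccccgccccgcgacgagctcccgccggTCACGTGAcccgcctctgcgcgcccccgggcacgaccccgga
MCOLN1: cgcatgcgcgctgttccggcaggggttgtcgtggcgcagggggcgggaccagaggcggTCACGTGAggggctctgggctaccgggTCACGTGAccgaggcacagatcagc
CTSA: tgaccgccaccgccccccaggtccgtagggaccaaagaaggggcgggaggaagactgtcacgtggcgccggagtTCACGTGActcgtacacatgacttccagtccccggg
LAMP1: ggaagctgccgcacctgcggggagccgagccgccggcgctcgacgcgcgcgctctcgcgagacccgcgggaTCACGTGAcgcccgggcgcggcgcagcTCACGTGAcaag
ATP6V0D1: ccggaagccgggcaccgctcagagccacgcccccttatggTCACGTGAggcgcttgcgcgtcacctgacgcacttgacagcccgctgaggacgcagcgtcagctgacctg
GAA, MCOLN1 and LAMP1 hold 2 copies each within these stretches, and CTSA and ATP6V0D1 hold 1. A match describes the letters of the window only and was not tested for binding.

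The 16 libraries held 29696358 to 72489002 counts. Mitochondrially encoded genes took 17.8% of the counts in HCC1806 monolayer replicate 1 and 20.5% in ZR-75-30 monolayer replicate 2, against 0.768% to 6.30% in the other 14 libraries. The 2 HCC1806 monolayers differed from each other far more than any other pair: the standard deviation of their log2 difference was 1.51 over 11715 genes, against 0.879 in ZR-75-30, 0.652 in CAL148 and 0.159 to 0.298 in the other 5 groups. Among 31 members with enough signal, 15 differed by more than 1 log2 unit between the HCC1806 monolayers, 10 between the ZR-75-30 monolayers, 6 between the CAL148 monolayers and 0 in each of the other 5 groups. Over these members the standard deviation was 1.43 in HCC1806, 0.899 in ZR-75-30 and 0.800 in CAL148 monolayers, against 1.51, 0.879 and 0.652 over all genes compared. Comparisons of HCC1806 and BT474 that do not need the HCC1806 monolayers were therefore fitted on the 10 libraries without them. The CAL148 and ZR-75-30 monolayers were set against BT474 in a model that kept the HCC1806 monolayers, so those comparisons share their spread. Epithelial keratins and adhesion genes were detected in all 16 libraries, with summed levels of 1738 to 8842 CPM (read counts divided by TMM-adjusted library size). ERBB2 stood at 5974 to 9004 CPM in BT474 and ZR-75-30, and at 108 to 341 CPM in HCC1806 and CAL148. In bulk RNA, fewer cells of a kind and less RNA per cell cannot be told apart.

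Within the set, levels spanned several orders of magnitude. The deposited FPKM scale is per gene length, and the deposited length of each member equals the union of its annotated exons. That union includes bases shared with other genes, 41.7% on the same strand in CTSD, and how reads of shared bases were assigned was not examined. On that scale PSAP, the precursor of the saposins that help degrade sphingolipids, had the highest level of the 32 members in all 8 groups. It had 463 ± 21.7 FPKM in HCC1806 day 10 spheroids and 162 ± 29.4 FPKM in CAL148 monolayers (SD, n = 2 each). CD63, a tetraspanin of late endosomes, stood second in BT474 and ZR-75-30, at 212 ± 20.8 FPKM in BT474 day 10 spheroids. TFEB itself reached 4.0 ± 0.296 FPKM in HCC1806 day 10 spheroids and 0.200 ± 0.00863 FPKM in BT474 day 10 spheroids. Between 8 and 16 of the 32 members ranked in the top 10% of protein-coding genes, the fewest in CAL148 monolayers and the most in HCC1806 day 10 spheroids. The 32 genes together took 0.740% and 0.728% of all counts in HCC1806 day 10 spheroids, 0.611% and 0.612% at day 20, and 0.399% and 0.324% in monolayers. In BT474 they took 0.427% and 0.462% at day 10, 0.420% and 0.426% at day 20, and 0.385% in both monolayers.

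**Figure D1:**
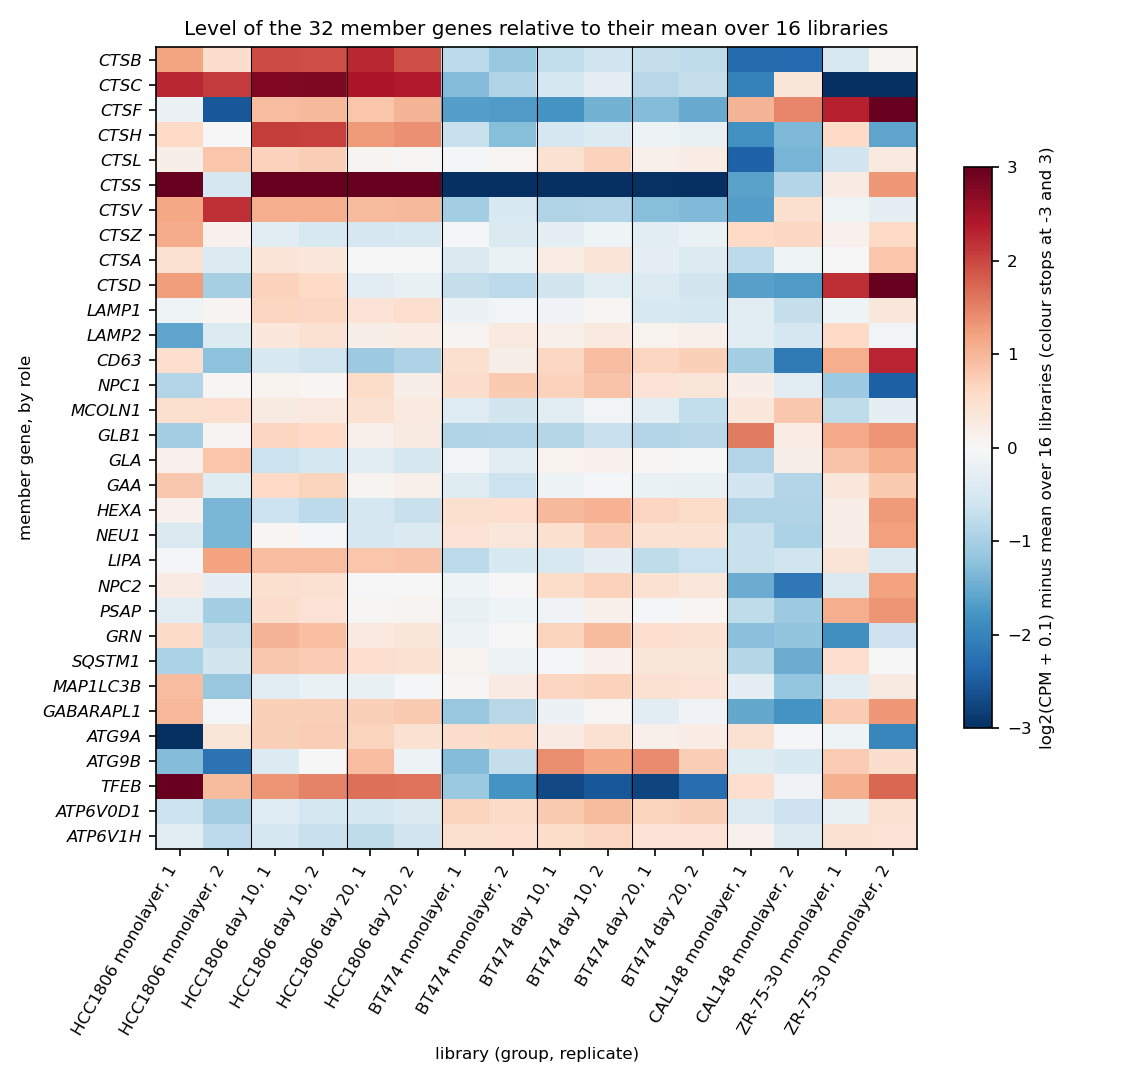
Each row is 1 of the 32 members, grouped by role, and each column 1 of the 16 libraries; colour gives log2 CPM relative to the member's mean. CTSB, CTSC, CTSF, CTSH, CTSS and CTSV are higher in HCC1806 spheroids than in BT474 spheroids, and the 2 HCC1806 monolayers differ from each other in 15 members by more than 1 log2 unit.

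HCC1806 spheroids differed from BT474 spheroids in most members, as they did in most genes. At day 10, 26 of 32 members passed an adjusted p of 0.05 in edgeR's quasi-likelihood test, 17 higher and 9 lower in HCC1806, against 70.8% of all 20606 genes tested (34.5% higher, 36.4% lower). At day 20, 24 passed, 16 higher and 8 lower, against 70.9% of all genes (35.7% higher, 35.2% lower). The median log2 fold change of the members was 0.41 at day 10 and 0.17 at day 20, and that of all genes -0.05 and 0.01. With median-ratio scaling in place of TMM the log2 fold changes between these lines moved up by 0.18 at day 10 and 0.14 at day 20, and 30 and 27 members were called, against 70.9% and 71.3% of all genes.

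Of the 10 cathepsins, 7 were higher and 0 lower in HCC1806 spheroids at day 10, against 34.5% and 36.4% of all genes. At day 20, 8 were higher and 0 lower, against 35.7% and 35.2%. The 10 cathepsin genes summed to 1881 and 1839 CPM in HCC1806 day 10 spheroids, against 565 and 642 CPM in BT474 day 10 spheroids. At day 20 the sums were 1646 and 1481 CPM in HCC1806 and 542 and 525 CPM in BT474. Both pairs of HCC1806 libraries lay above all 4 BT474 libraries. CTSB, a cysteine protease that lysosomes of most cell types hold in quantity, had 722 and 701 CPM in HCC1806 day 10 spheroids, against 110 and 123 CPM in BT474 day 10 spheroids, a log2 fold change of 2.61 ± 0.13 (SE, edgeR adjusted p = 6.35e-11). CTSC, which activates serine proteases of granules, averaged 229 ± 4.15 CPM and 24.9 ± 2.79 CPM in the same HCC1806 and BT474 spheroids (log2 fold change 3.20 ± 0.12). CTSF, CTSH and CTSV differed by 2.55 ± 0.15, 2.52 ± 0.15 and 2.00 ± 0.17 on the log2 scale. CTSL and CTSZ did not pass at either day.

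CTSS, a cathepsin best known from antigen-presenting cells, where it trims the invariant chain of class II molecules, had the largest log2 fold change of the 32 members at both days. Both libraries of HCC1806 day 10 spheroids held 59.1 CPM, against 0.0985 and 0.0917 CPM in BT474 day 10 spheroids. On summed counts this was a ratio of 627 (95% exact interval 341 to 1309, counting error only), from 4950 counts in HCC1806 and 10 in BT474. At day 20, HCC1806 spheroids held 22.4 and 26.5 CPM and BT474 spheroids 0.108 and 0.0529 CPM, a ratio of 306 (140 to 836) from 2032 and 6 counts. The 2 BT474 monolayers held 0 counts, which allows up to 0.0735 and 0.0715 CPM. CTSS lies on chromosome 1, 150730196 to 150765957 on the minus strand (GRCh38). The 5 leukocyte marker genes, PTPRC among them, summed to at most 0.361 CPM in the HCC1806 spheroids and 0.122 CPM in the BT474 spheroids. Of the 7 macrophage genes, CD163 and MRC1 were at 0 in all 8 spheroid libraries, and CD68 and AIF1 were at or under 0.0492 CPM. CSF1R held 1.33 to 3.21 CPM in the HCC1806 spheroids and 0 to 0.295 CPM in the BT474 spheroids. CD14 held 0.859 to 2.32 CPM and 0 to 0.148 CPM, in the same order. LYZ ran the other way, with at most 0.135 CPM in the HCC1806 spheroids and 15.7 to 25.2 CPM in the BT474 spheroids. The 7 macrophage genes summed to 3.51 to 4.33 CPM in the HCC1806 spheroids, 5 of them under 1 CPM. Their part in the CTSS difference was not tested.

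Not all roles ran the same way between the lines. TFEB stood at 20.6 and 23.1 CPM in HCC1806 day 10 spheroids and at 1.16 and 1.31 CPM in BT474 day 10 spheroids, a log2 fold change of 4.13 ± 0.23 (edgeR adjusted p = 1.12e-10). Among hydrolases, GLB1 (beta-galactosidase), GAA (acid alpha-glucosidase) and LIPA (lysosomal acid lipase) were higher in HCC1806, by 1.39 ± 0.10, 0.74 ± 0.10 and 1.30 ± 0.11 at day 10. HEXA, the alpha chain of hexosaminidase, the sialidase NEU1 and GLA (alpha-galactosidase) were lower, with log2 fold changes of -1.73 ± 0.13, -0.62 ± 0.10 and -0.71 ± 0.14. LAMP1, a major glycoprotein of the lysosomal membrane, was higher by 0.65 ± 0.08, and CD63 was lower (-1.31 ± 0.12). Both pump subunits were lower in HCC1806 at day 10, ATP6V0D1 with a log2 fold change of -1.32 ± 0.09 and ATP6V1H with -1.21 ± 0.09, and at day 20 with -1.16 ± 0.09 and -1.10 ± 0.10. Of 15 other subunits and accessory proteins of the pump, 1 was higher and 13 lower in HCC1806 at day 10, against 34.5% and 36.4% of all genes. At day 20, 1 was higher and 12 lower, against 35.7% and 35.2%. When the discordant HCC1806 monolayers were added to the model (12 libraries), 15 members were called at day 10 and 17 at day 20, against 43.1% and 43.6% of all genes.

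HCC1806 spheroids at day 10 stood above the monolayers in 5 members and below in 1. CTSB, CTSH (an aminopeptidase), LAMP2 (a membrane protein that takes part in fusion of autophagosomes with lysosomes), PSAP and SQSTM1 rose and GLA fell, in an edgeR model of 12 libraries with an adjusted p under 0.05. This is 6 of 32 members against 8.14% of all 20929 genes tested (4.59% higher, 3.55% lower), and the median log2 fold change was 0.41 over the members and 0.00 over all genes. At an unadjusted p under 0.05 there were 15 members, against 25.6% of all genes. No member was called once either day 10 library was left out, when 0.66% and 0.581% of all genes were, nor in a model of the 6 HCC1806 libraries alone, which called 0 genes of 18869.

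SQSTM1 and CTSH gave the calls least dependent on single libraries. SQSTM1 (chromosome 5, 179806398 to 179838078, plus strand) held 636 and 613 CPM in day 10 spheroids, against 189 and 249 CPM in monolayers. The groups did not overlap, and the log2 fold change was 1.51 ± 0.20 (adjusted p = 0.0049). It remained called in 10 of 12 fits that left out 1 library, and reached an adjusted p of 0.0556 without day 10 replicate 1 and 0.0549 without day 10 replicate 2. MRNIP, a protein-coding gene on the opposite strand that shares 20.7% of the SQSTM1 exon bases, held 7.34 to 22.0 CPM in all 16 libraries. In HCC1806 it held 7.34 and 9.59 CPM in monolayers, 13.4 and 20.1 CPM at day 10, and 17.5 and 22.0 CPM at day 20. Without a stated strand setting its reads cannot be told apart from those of SQSTM1, and its part in the SQSTM1 change was not tested. CTSH (chromosome 15, 78921058 to 78949574, minus strand) held 244 and 241 CPM in day 10 spheroids, against 88.8 and 58.1 CPM in monolayers, a log2 fold change of 1.72 ± 0.26 (adjusted p = 0.00827), likewise lost without day 10 replicate 1 (0.0715) or 2 (0.0785).

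The other 4 called members depended on more libraries. CTSB held 722 and 701 CPM in day 10 spheroids, against 419 and 265 CPM in monolayers, 1.06 ± 0.25 on the log2 scale (adjusted p = 0.038). PSAP held 1486 and 1405 CPM in day 10 spheroids, against 814 and 513 CPM in monolayers (1.12 ± 0.25, adjusted p = 0.0276). LAMP2 held 189 and 211 CPM in day 10 spheroids, against 51.3 and 115 CPM in monolayers (1.26 ± 0.32, adjusted p = 0.0485). All 3 were higher in both spheroid libraries than in either monolayer. GLA held 10.6 and 11.4 CPM in day 10 spheroids, against 18 and 29.6 CPM in monolayers, and fell by 1.12 ± 0.26 (adjusted p = 0.0338). Each of the 4 calls held in 2 of 12 fits that left out 1 library, those without 1 of the monolayers, and the highest adjusted p was 0.199 for CTSB, 0.171 for PSAP, 0.247 for LAMP2 and 0.23 for GLA, all without a day 10 library.

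At day 20, HCC1806 spheroids differed from the monolayers in 6 members, 4 higher and 2 lower, against 10.7% of all genes (5.7% higher, 5.05% lower). The median log2 fold change was 0.22 over the members and 0.00 over all genes. SQSTM1 held 516 and 502 CPM in day 20 spheroids, against 189 and 249 CPM in monolayers, a log2 fold change of 1.22 ± 0.20 (adjusted p = 0.00855). CTSB held 886 and 702 CPM against the same 419 and 265 CPM (1.22 ± 0.25, adjusted p = 0.0204), and CTSH 142 and 151 CPM against 88.8 and 58.1 CPM (0.99 ± 0.25, adjusted p = 0.0411). In all 3 the spheroid libraries lay above the monolayers. CTSZ, a carboxypeptidase, fell to 61.6 and 62.7 CPM in day 20 spheroids, against 189 and 95.8 CPM in monolayers, and decreased by 1.19 ± 0.30 (adjusted p = 0.0373). GLA fell to 13.0 and 11.5 CPM, against 18 and 29.6 CPM, and decreased by 0.96 ± 0.26 (adjusted p = 0.0484).

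ATG9B was called at day 20 at a very low level. It held 1.74 and 0.787 CPM in day 20 spheroids, against 0.300 and 0.111 CPM in monolayers, a log2 fold change of 2.64 ± 0.66 (adjusted p = 0.0374), and 0.238 without day 20 replicate 1. Without either day 20 library no member was called (0 of 32), when 1.25% and 1.31% of all genes were, and without either day 10 library 1 was, when 4.91% and 4.88% of all genes were. In these fits SQSTM1 had an adjusted p of 0.0771 without day 20 replicate 1 and 0.07 without day 20 replicate 2. PSAP held 1056 and 1092 CPM at day 20 and did not pass (0.70 ± 0.24, adjusted p = 0.105).

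Because the HCC1806 monolayers stand apart from each other, the spheroids were also set against each of them alone. Such a fit takes the spread of a lone monolayer from the other groups, though the 2 HCC1806 monolayers differed far more than those. The calls below are therefore descriptive, and both fits share the same spheroid libraries. Against monolayer replicate 2 alone (without replicate 1), 26 members were called at day 10, 23 of them higher, when 37.9% of all genes were called and 19.4% were higher. Against monolayer replicate 1 alone, 23 were called, 16 of them higher, when 52.2% of all genes were called and 29.6% were higher. At day 10, 13 of 32 members were called higher against each of the monolayers: CTSB, CTSC, CTSF, CTSH, CTSS, LAMP1, LAMP2, GLB1, NEU1, PSAP, GRN, SQSTM1 and ATG9A. Of 22155 genes tested in both fits, 8.91% were called higher against each. Called lower against each were 2 members, CTSZ and GLA, against 6.11% of all genes. In 4 members, CTSD, CD63, HEXA and MAP1LC3B, the direction of the call depended on which monolayer was used, as it did in 11.4% of all genes. At day 20, 24 members were called against monolayer replicate 2 alone, 19 of them higher, against 39.9% of all genes called and 20.2% higher. Against monolayer replicate 1 alone 22 were called, 12 of them higher, against 52.6% and 29.8%. Over both fits 8 members were called higher against each monolayer, 2 lower and 7 in opposite directions, against 9.51%, 7.01% and 11.3% of all genes.

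CTSD, the aspartic protease of lysosomes, shows the size of this split. It held 281 and 266 CPM in HCC1806 day 10 spheroids, against 414 CPM in monolayer replicate 1 and 87.7 CPM in monolayer replicate 2, so the monolayers lay on either side of the spheroids. The log2 fold change at day 10 was -0.60 against replicate 1 alone and 1.64 against replicate 2 alone. TFEB held 20.6 and 23.1 CPM at day 10 and 26.1 and 25.5 CPM at day 20, against 64.8 CPM in monolayer replicate 1 and 15.7 CPM in replicate 2. CTSS held 59.1 CPM in both day 10 libraries, against 23.8 and 1.06 CPM in the monolayers. Whether the mitochondrial share of replicate 1 takes part in these differences was not tested.

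**Figure D2:**
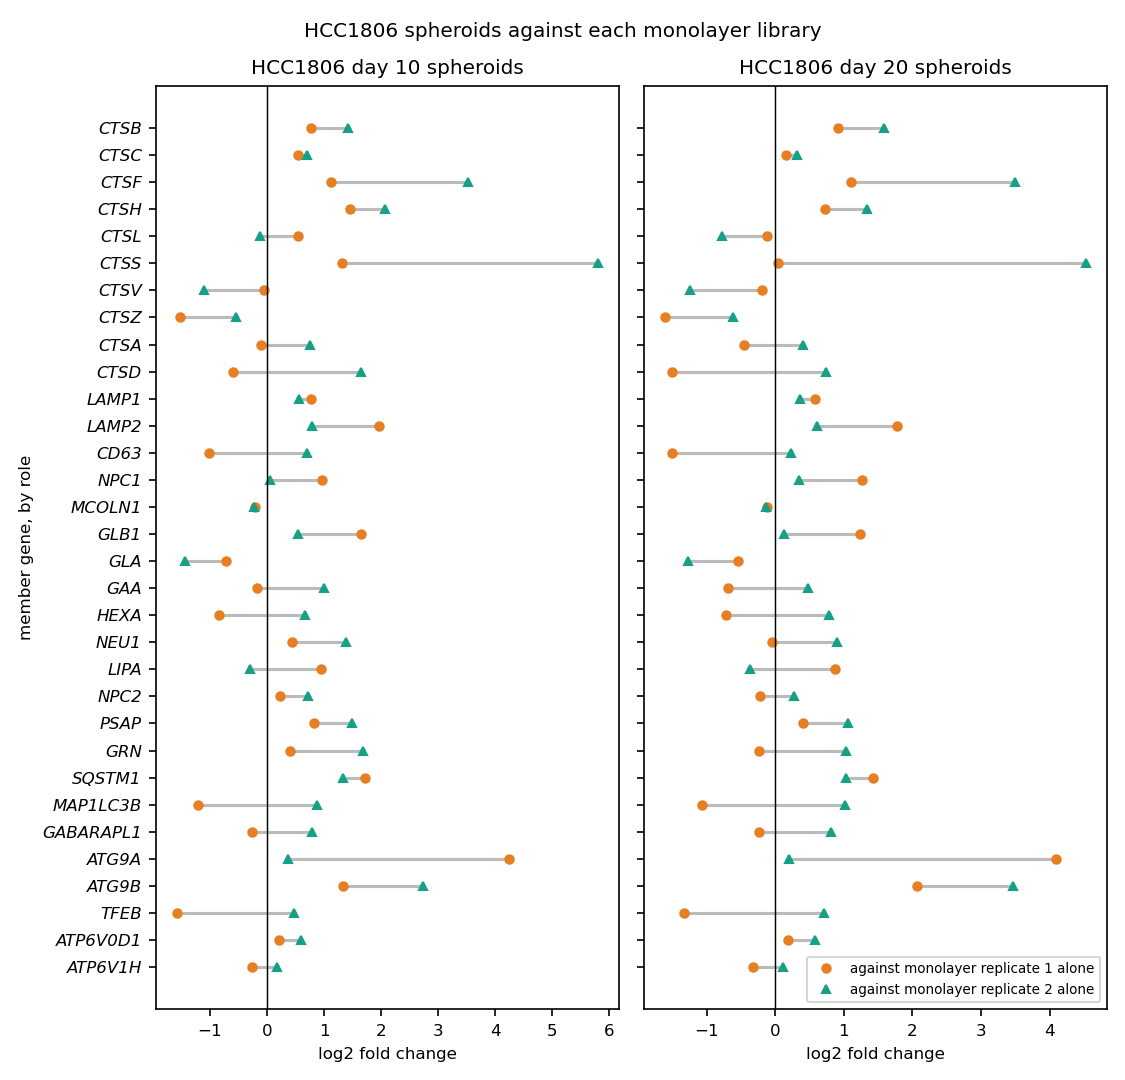
Each point is 1 member's log2 fold change of HCC1806 day 10 (left) or day 20 (right) spheroids against monolayer replicate 1 alone and against monolayer replicate 2 alone. In both panels SQSTM1 and CTSH lie above 0 against either monolayer, GLA and CTSZ lie below 0, and the points of CTSD lie on opposite sides of 0.

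At day 20, HCC1806 spheroids were lower than at day 10 in 11 members and higher in 0, against 6.16% of all 20606 genes (2.88% higher, 3.28% lower) in the edgeR model of 10 libraries. The 11 were CTSH, CTSL, CTSS, CTSD, CD63, GLB1, GAA, NEU1, NPC2, PSAP and GRN, which spans 4 cathepsins, 3 sugar-cleaving enzymes, 1 membrane protein, the cholesterol carrier NPC2, the saposin precursor and the granulin precursor. The median log2 fold change was -0.17 over the members and 0.00 over all genes. None of the autophagy adaptors, ATG8-family or ATG9 genes, TFEB or the pump subunits was called. At an unadjusted p under 0.05, 16 members differed, 1 of them higher at day 20, against 18% of all genes (8.19% higher).

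CTSS changed most, to 22.4 and 26.5 CPM at day 20, against 59.1 CPM in both day 10 libraries, a log2 fold change of -1.27 ± 0.14 (adjusted p = 4.03e-05). CTSD fell to 141 and 151 CPM at day 20, against 281 and 266 CPM at day 10 (-0.90 ± 0.09, adjusted p = 1.67e-05). CTSH fell to 142 and 151 CPM, against 244 and 241 CPM at day 10 (-0.73 ± 0.14, adjusted p = 0.00752). The day 20 and day 10 libraries of these 3 genes did not overlap. CTSD shares 41.7% of its exon bases with a readthrough gene on the same strand, AC068580.4, which held 1.01 to 2.51 CPM in these 4 libraries. GRN, a secreted growth factor that is cut into granulins in lysosomes, averaged 314 ± 12 CPM at day 20 and 492 ± 26 CPM at day 10 (SD, n = 2 each; -0.65 ± 0.10, adjusted p = 0.000758). CTSL averaged 66.6 ± 1.40 CPM at day 20 and 105 ± 1.38 CPM at day 10 (-0.65 ± 0.10, adjusted p = 0.000505). PSAP held 1056 and 1092 CPM at day 20, against 1486 and 1405 CPM at day 10 (-0.43 ± 0.09, adjusted p = 0.00894).

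Of the 11 calls, 5 held in all 10 fits that left out 1 library: CTSL, CTSS, CTSD, GAA and GRN. Without day 10 replicate 1 there were 5 calls, against 2.29% of all genes, and without day 20 replicate 1 there were 6, against 3.2%; CTSH then had an adjusted p of 0.0653 and 0.0763. When the HCC1806 monolayers were included in the model (12 or 16 libraries), 0 of the 11 members remained called, along with 0 and 1 genes of the whole table. In the 4 spheroid libraries fitted alone 14 members were called, all lower at day 20, against 10.3% of all genes.

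BT474 spheroids at day 10 exceeded the monolayers in 14 members and fell below in 1, against 11.3% of all 20606 genes (7.51% higher, 3.75% lower). Those higher were CTSC, CTSH, CTSL, CTSS, CTSA, CTSD, CD63, GAA, HEXA, NPC2, GRN, MAP1LC3B, GABARAPL1 and ATG9B, and TFEB was lower. The median log2 fold change was 0.28 over the members and 0.03 over all genes. Of all genes called, 66.7% were higher with TMM scaling and 56.3% with median-ratio scaling, under which 13 members were higher and 1 lower and 11.9% of all genes were called. Most of the changes were under 1 log2 unit.

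GRN (chromosome 17, 44345086 to 44353102, plus strand) had the lowest adjusted p among them. It held 396 and 486 CPM in BT474 day 10 spheroids, against 227 and 255 CPM in monolayers, with no overlap, a log2 fold change of 0.87 ± 0.10 (adjusted p = 3.28e-05). The ATG8-family gene GABARAPL1 averaged 53.5 ± 5.77 CPM in day 10 spheroids and 28.5 ± 4.40 CPM in monolayers (SD, n = 2 each; 0.91 ± 0.12, adjusted p = 0.000111), and MAP1LC3B averaged 110 ± 2.26 CPM and 77.1 ± 7.76 CPM (0.51 ± 0.10). MAP1LC3B shares 3.7% of its 100-base words with the near-copy MAP1LC3B2, which held 0.918 to 2.92 CPM in the 16 libraries. NPC2, the soluble partner of NPC1 in cholesterol export, rose by 0.68 ± 0.09, and CTSA, CTSC and CTSL by 0.61 ± 0.10, 0.69 ± 0.12 and 0.58 ± 0.10. CTSD held 120 and 138 CPM in day 10 spheroids, against 107 and 101 CPM in monolayers (0.31 ± 0.09, adjusted p = 0.0406). CTSH held 41.0 and 43.7 CPM, against 36.7 and 23.9 CPM, with an adjusted p just under the threshold, and was lost in 9 of 10 fits that left out 1 library.

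TFEB (chromosome 6, 41683978 to 41736259, minus strand) went the other way. It held 1.16 and 1.31 CPM in BT474 day 10 spheroids, against 3.70 and 2.29 CPM in monolayers, and fell by 1.26 ± 0.24 on the log2 scale (adjusted p = 0.00246). The groups did not overlap, and the call held in all 10 fits that left out 1 library. Of the 5 members whose windows carry the 8-base element shown above, CTSA and GAA were called higher in the same comparison, and LAMP1, MCOLN1 and ATP6V0D1 were not called. Of all 32 members 43.8% were called higher there, and of all genes 7.51%. Whether TFEB takes part in the levels of these genes was not tested.

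CTSS and ATG9B were called from very few reads. CTSS held 0.0985 and 0.0917 CPM in BT474 day 10 spheroids, 10 counts in all, against 0 counts in the monolayers. With the monolayers set to a floor of 3 counts over the group, this was 2.60-fold higher, with the spheroid counts taken as exact. No BT474 library reached the minimum count of 10. In this model CTSS passed the filter only through the HCC1806 spheroids, at 888 to 2622 counts. ATG9B (chromosome 7, 151012209 to 151024499, minus strand) held 2.46 and 2.08 CPM in day 10 spheroids, against 0.294 and 0.5 CPM in monolayers (2.50 ± 0.47, adjusted p = 0.00225). It shares 12.3% of its exon bases with NOS3 on the opposite strand, and NOS3 held 36.7 and 54.0 CPM in those spheroids, against 5.31 and 2.65 CPM in the monolayers. Without a stated strand setting, reads of the shared bases cannot be told apart, and the part of NOS3 in the ATG9B change was not tested.

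**Figure D3:**
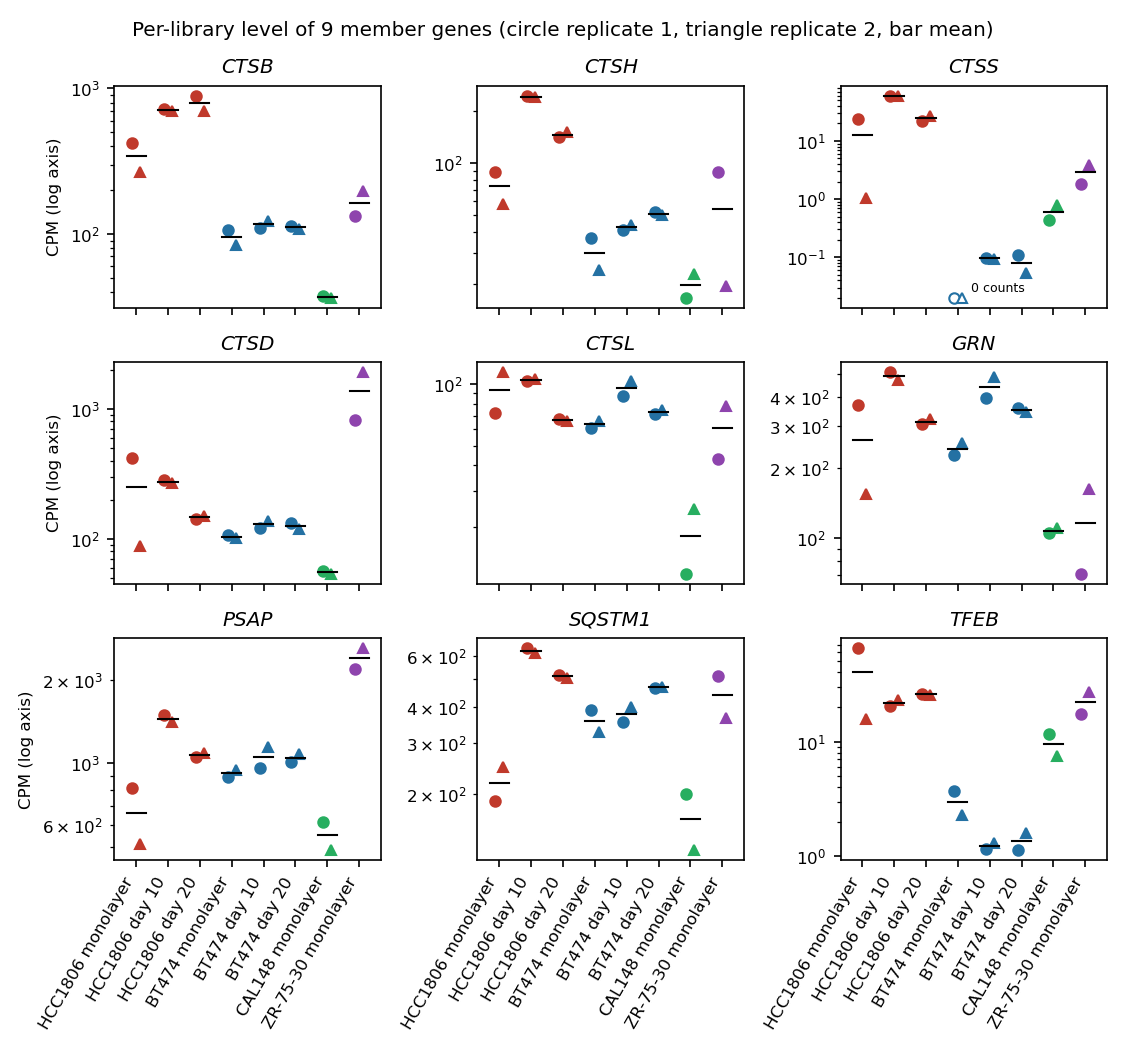
Each panel shows 1 of 9 members, and each circle (replicate 1) or triangle (replicate 2) 1 library, in normalised CPM on a log axis, by group, with a bar at the group mean. CTSB, CTSH, CTSD and SQSTM1 of HCC1806 spheroids lie above those of BT474 spheroids at day 10, CTSS is at 0 in the BT474 monolayers, and TFEB is lowest in BT474 spheroids.

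At day 20, BT474 spheroids differed from the monolayers in 11 members, 7 higher and 4 lower, against 13.5% of all genes (6.56% higher, 6.91% lower). Higher were CTSH, CTSS, NPC2, GRN, SQSTM1, GABARAPL1 and ATG9B, and lower were CTSV, LAMP1, ATG9A and TFEB. The median log2 fold change was 0.19 over the members and 0.00 over all genes. GRN held 359 and 347 CPM at day 20, against 227 and 255 CPM in monolayers (0.55 ± 0.10, adjusted p = 0.00161), and CTSH 52.1 and 49.9 CPM, against 36.7 and 23.9 CPM (0.75 ± 0.15, adjusted p = 0.00443). SQSTM1 held 463 and 470 CPM, against 389 and 327 CPM (0.38 ± 0.09, adjusted p = 0.0117). None of these groups overlapped. GABARAPL1 averaged 48.1 ± 5.49 CPM at day 20 and 28.5 ± 4.40 CPM in monolayers (0.75 ± 0.12).

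The members lower at day 20 included LAMP1 at 338 ± 14.1 CPM, against 435 ± 21.7 CPM in monolayers (SD, n = 2 each; -0.36 ± 0.08, adjusted p = 0.00923). TFEB held 1.13 and 1.59 CPM at day 20, against 3.70 and 2.29 CPM in monolayers, and fell by 1.13 ± 0.25 (adjusted p = 0.0061), 0.0775 without day 20 replicate 1 and 0.0545 without monolayer replicate 1. The elastin-degrading cathepsin CTSV fell by 0.60 ± 0.18, with an adjusted p of 0.371 without monolayer replicate 2, and ATG9A fell by 0.38 ± 0.11, though 38.8% of its exon bases are shared with the same-strand gene AC068946.2, at most 0.381 CPM in all 16 libraries. CTSS held 6 counts at day 20, 2.21-fold above the floor of the monolayers, with those 6 counts taken as exact. ATG9B held 2.51 and 1.53 CPM, against 0.294 and 0.5 CPM (2.34 ± 0.47, adjusted p = 0.0037), and NOS3 held 41.1 and 38.6 CPM, against 5.31 and 2.65 CPM.

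Both BT474 results against the monolayers rest on which libraries set the spread. In the 6 BT474 libraries alone 12 members were called at day 10 and 10 at day 20, against 13.9% and 16.6% of all genes. In models that include the HCC1806 monolayers 0 were called at either day, when 0.124% and 0.22% of all genes were called with 12 libraries and 0.0276% and 0.0415% with 16. Of the 15 calls at day 10, 9 held in all 10 fits that left out 1 library, and 9 calls were left without day 10 replicate 2, against 4.16% of all genes. Of the 11 calls at day 20, 4 held in all 10, namely CTSH, GRN, GABARAPL1 and ATG9B, with 5 calls left without day 20 replicate 1 and 7 without day 20 replicate 2, against 6.77% and 4.96% of all genes. LYZ, a secreted enzyme of macrophages and of some glandular epithelia, held 15.7 to 25.2 CPM in the BT474 spheroids, against 0.286 and 0.367 CPM in the monolayers. The other 6 macrophage genes stayed low, with all 7 summing to 16.2 to 25.4 CPM in the spheroids and 0.357 to 0.661 CPM in the monolayers, and CD163 and MRC1 at 0.

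**Figure D4:**
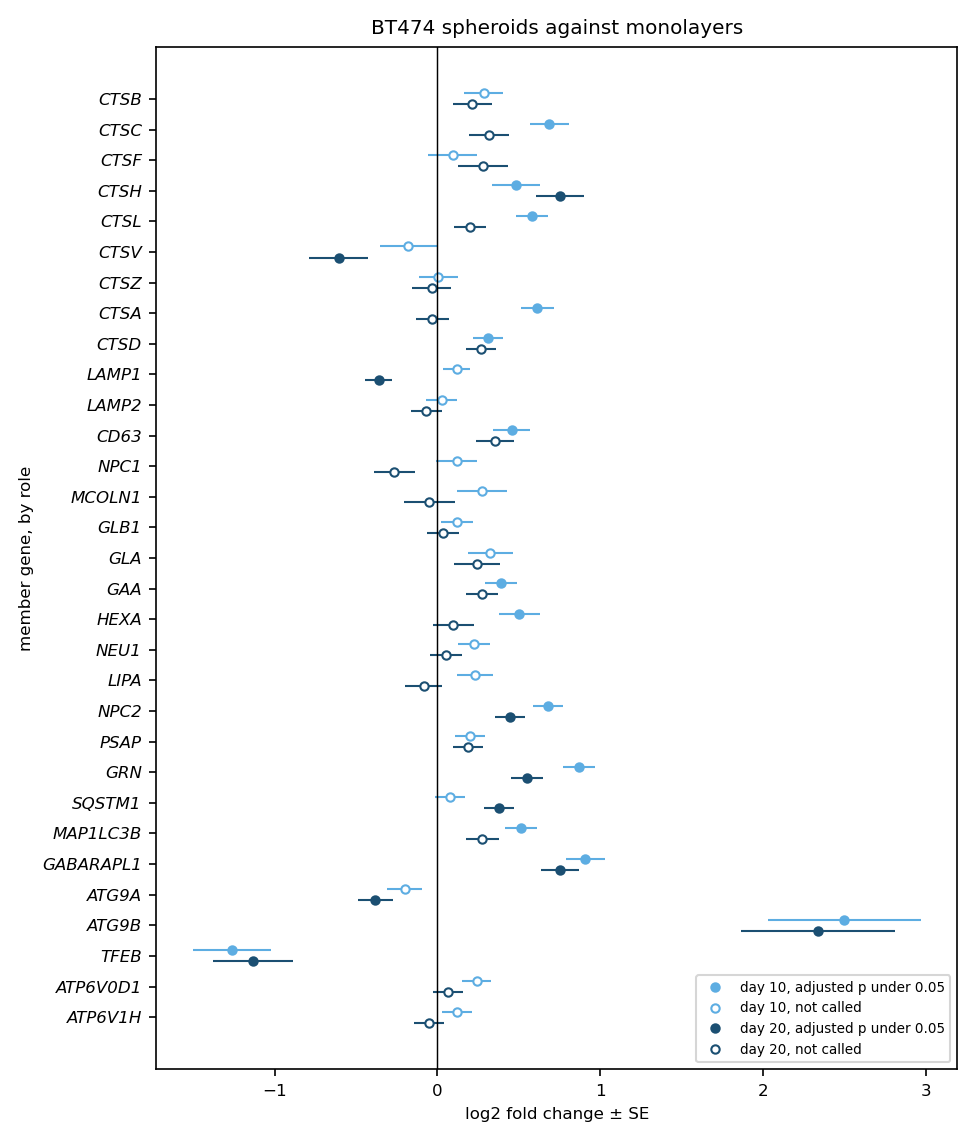
Each point is a member's log2 fold change, with its standard error, in BT474 day 10 and day 20 spheroids against the monolayers, which both comparisons share; CTSS, at 0 counts in the monolayers, is left out. GRN, GABARAPL1 and ATG9B lie above 0 at both days, and TFEB lies below.

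At day 20 against day 10, BT474 spheroids differed in 2 members, CTSA and LAMP1, both lower at day 20, against 0.51% of all genes (0.0971% higher, 0.413% lower). CTSA, which protects NEU1 and beta-galactosidase in a complex, averaged 68.8 ± 4.29 CPM at day 20 and 108 ± 9.53 CPM at day 10 (SD, n = 2 each; -0.65 ± 0.10, adjusted p = 0.0115). LAMP1 averaged 338 ± 14.1 CPM at day 20 and 472 ± 35.9 CPM at day 10 (-0.48 ± 0.08, adjusted p = 0.0206). No call was left without day 10 replicate 2, where CTSA had an adjusted p of 0.26 and LAMP1 of 0.285, and none without day 20 replicate 2, when 0.0408% and 0.059% of all genes were called. With median-ratio scaling 2 members were lower and 0 higher, against 0.252% of all genes, and of all genes called 32.7% were higher at day 20, against 19% with TMM. At an unadjusted p under 0.05 there were 12 members, 1 of them higher, against 9.83% of all genes (2.32% higher).

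The change from day 10 to day 20 was then compared between the lines, as the HCC1806 change minus the BT474 change. It differed in 3 members, CTSH, CTSD and SQSTM1, all more negative in HCC1806, against 2.32% of all 20606 genes (1.63% higher, 0.689% lower). CTSD changed by -0.90 ± 0.09 in HCC1806 and held 132 and 118 CPM at day 20 in BT474, against 120 and 138 CPM at day 10, a line difference of -0.86 ± 0.13 (adjusted p = 0.00188). CTSH fell in HCC1806, while in BT474 it held 52.1 and 49.9 CPM at day 20, against 41.0 and 43.7 CPM at day 10, a line difference of -0.996 ± 0.20 (adjusted p = 0.0197). SQSTM1 held 516 and 502 CPM at day 20 in HCC1806, against 636 and 613 CPM at day 10, and 463 and 470 CPM at day 20 in BT474, against 356 and 400 CPM at day 10. Its line difference was -0.60 ± 0.13 (adjusted p = 0.0207), though neither change alone passed (adjusted p = 0.0738 in HCC1806 and 0.22 in BT474). CTSD kept its call in all 10 fits that left out 1 library. CTSH was left called in 2 of them, with an adjusted p up to 0.103 without BT474 day 10 replicate 1, and SQSTM1 in 3, with up to 0.0981 without BT474 day 20 replicate 2. None of the 3 was called in the models with the HCC1806 monolayers.

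**Figure D5:**
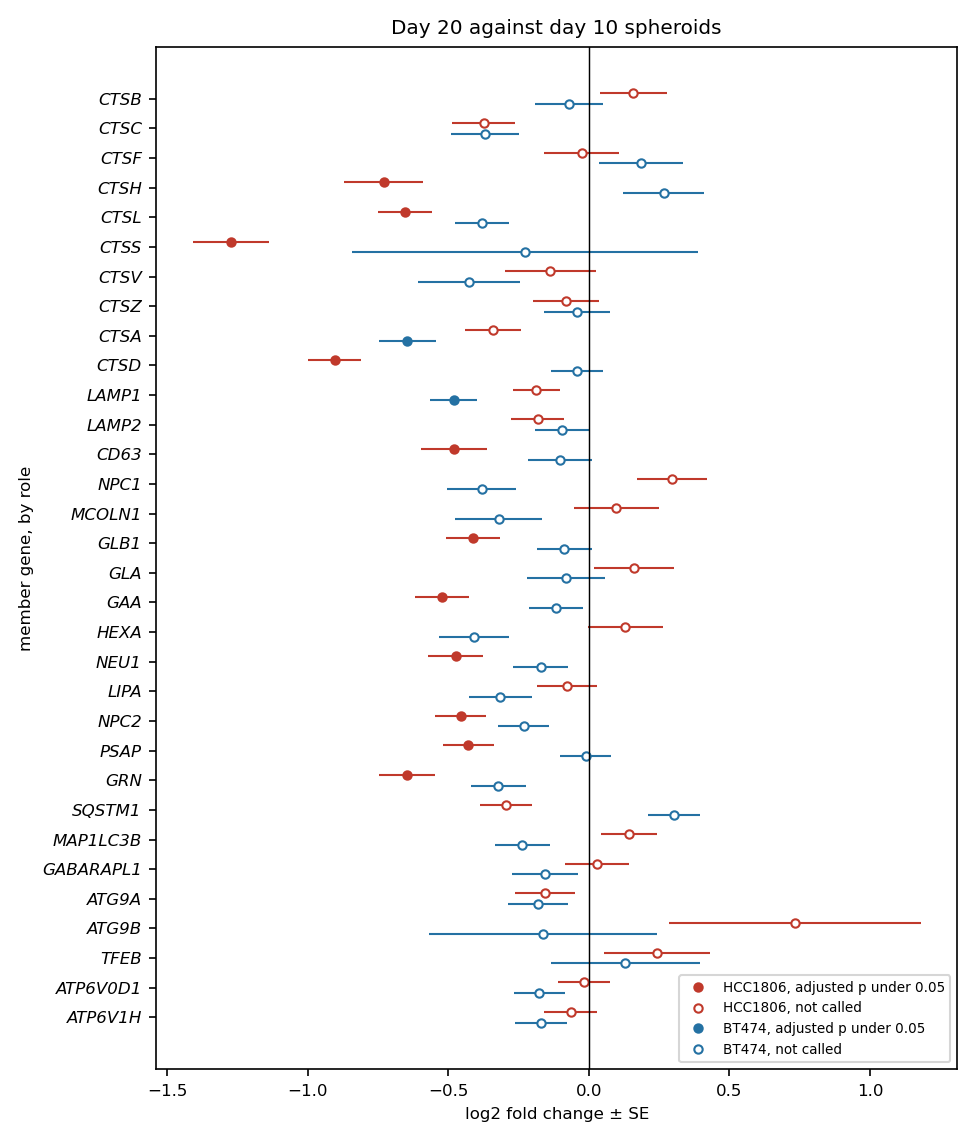
Each point is a member's log2 fold change at day 20 against day 10, with its standard error, in HCC1806 (red) and in BT474 (blue), filled where the adjusted p was under 0.05. CTSD, at -0.90, and CTSH, at -0.73, lie below 0 in HCC1806 and are not called in BT474, where CTSA and LAMP1 alone are filled.

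The response to spheroid growth against monolayer was not shown to differ between the lines for any member. In the test of the line difference 0 of 32 members passed at day 10, against 1.05% of all 20929 genes (0.707% higher, 0.344% lower), and 0 at day 20, against 2.3% (1.49% higher, 0.807% lower), by edgeR. At an unadjusted p under 0.05 there were 6 and 7 members, against 16.7% and 18.1% of all genes, near the share of all genes. DESeq2 called 5 and 3 members, against 11.8% and 12.5% of the genes to which it gave an adjusted p. These tests rest on the discordant HCC1806 monolayers: against replicate 2 alone, 18 members were called at day 10 and 19 at day 20, against 27.6% and 28.9% of all genes. Against replicate 1 alone, 24 and 21 were called, against 44.3% and 44.8% of all genes.

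Among the monolayers of the 4 lines, each was set against BT474, in a model that included the discordant HCC1806 monolayers. HCC1806 differed in 6 members, with CTSB, CTSC, CTSS, GABARAPL1 and TFEB higher and ATP6V0D1 lower, against 19.9% of all 19594 genes (10.9% higher, 9.02% lower). CTSB held 419 and 265 CPM in HCC1806, against 107 and 84.2 CPM in BT474 (1.84 ± 0.39, adjusted p = 0.0188), and TFEB 64.8 and 15.7 CPM, against 3.70 and 2.29 CPM (3.75 ± 0.77, adjusted p = 0.0171). With median-ratio scaling the shift between the lines was 0.16 log2 units and the 6 called members were all higher. ZR-75-30 differed in 4 members, with CTSF, CTSD and GABARAPL1 higher and CTSC lower, against 7.89% of all genes (3.47% higher, 4.42% lower). Its CTSD level of 817 and 1909 CPM lay above every library of the other 7 groups, against 107 and 101 CPM in BT474 (3.71 ± 0.79, adjusted p = 0.0328). CTSC was nearly lacking there, at 2.03 and 1.25 CPM, against 13.3 and 17.7 CPM in BT474 (-3.23 ± 0.77, adjusted p = 0.0454).

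CAL148 differed from BT474 in 0 members by edgeR, against 6.44% of all genes (2.49% higher, 3.95% lower), with 12 members at an unadjusted p under 0.05, against 24.4% of all genes, and 9 by DESeq2, against 19.2% of the genes to which it gave an adjusted p. Its 10 cathepsins summed to 357 and 466 CPM, against 487 and 448 CPM in BT474. CTSS was detected in all 3 other lines, and stood 17.2-fold above the floor of the BT474 monolayers in CAL148 and 71.9-fold above it in ZR-75-30. Without BT474 monolayer replicate 1 or 2, 0 members were called in HCC1806, when 3.25% and 3.05% of all genes were, and 0 in ZR-75-30, when 0.848% and 0.87% were. Without HCC1806 monolayer replicate 1, 10 members were called in HCC1806, 8 in CAL148 and 10 in ZR-75-30, against 21.9%, 17.3% and 19.8% of all genes. Without HCC1806 monolayer replicate 2 the counts were 12, 8 and 10, against 32%, 17% and 19.4%. ZR-75-30 also had 0 calls without replicate 1 or 2 of its own libraries, when 1.28% and 1.23% of all genes were called.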

How the data were processed

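Per the labels' protocols, poly(A)-selected RNA was sequenced as 150 bp read pairs. The authors used HISAT2 2.2.1 for alignment to GRCh38 and featureCounts 2.0.6 for gene counts, per the submitters' processing notes. The deposited counts are whole numbers per gene for 16 libraries. Neither the strand setting nor how multiply aligned reads were treated is given in the sources used here. The deposited FPKM values were made by the authors, and served here only for levels between genes.

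Counts were tested in R 4.3.3 with edgeR 4.0.16 (limma 3.58.1): TMM factors over all 16 libraries, filterByExpr (minimum count 10, minimum total 15), and robust quasi-likelihood F tests with Benjamini-Hochberg adjustment over all genes tested. Calls needed an adjusted p under 0.05, and a standard error is the log2 fold change divided by the square root of F. HCC1806 spheroids against monolayers and the line differences against monolayers used the 12 HCC1806 and BT474 libraries. Other comparisons of these lines used the 10 libraries without the HCC1806 monolayers, and monolayers of the 4 lines used 8 libraries. DESeq2 1.42.0, its scaling, no count filter, other sets of libraries, the replicate number as a block and leaving out each library were alternatives. The procedure was tested on simulated counts with equal spread in every group. The spread of these libraries differs between groups, and the simulation did not cover that.

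Per-library CPM is given for members called with a log2 fold change of at least 1 in size in a within-line comparison, or called in the line difference between days; GRN and some others were chosen after their values were seen. Genes named from the pathway lists are the called genes of highest or lowest fold in a list. The remaining genes that are no members are cell type markers, or genes that share exon bases or sequence with a member. Members and lists were chosen with earlier results of these data known. Exact intervals and the floor of 3 counts cover counting error only.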

Additional observations from a re-analysis of the deposited data

Results flagged for a closer look

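In 3 members the change from day 10 to day 20 differed between the lines in a test of that difference (HCC1806 change minus BT474 change, edgeR, adjusted over 20606 genes). CTSH gave -0.996 ± 0.20 on the log2 scale (adjusted p = 0.0197), CTSD -0.86 ± 0.13 (adjusted p = 0.00188) and SQSTM1 -0.60 ± 0.13 (adjusted p = 0.0207). CTSH and CTSD were lower at day 20 in both HCC1806 libraries than in either day 10 library, and SQSTM1 was higher at day 20 in both BT474 libraries and lower in both HCC1806 libraries. No explanation was tested.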

How the results depend on the processing

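Counts of called members changed with the set of libraries, the count filter and the test. Not every count in this section has the share of all genes beside it. Such counts show how far the calls moved with the setting, and nothing particular to the members. HCC1806 day 10 against monolayer gave 6 calls, 12 without a count filter, 12 by DESeq2, 2 in all 16 libraries and 0 in the 6 HCC1806 libraries alone. Day 20 gave 6, 3 with the replicate number as a block and 0 in the 6 libraries alone. With the HCC1806 monolayers in the model (all 16, or 12 libraries), 0 members were called in either for HCC1806 day 20 against day 10 (11 as reported), BT474 day 10 against monolayer (15), BT474 day 20 against monolayer (11), BT474 day 20 against day 10 (2) and the line difference between days (3). HCC1806 against BT474 gave 15 calls in both at day 10 (26 as reported) and 14 in all 16 libraries at day 20 (24). Without a count filter and by DESeq2, BT474 day 20 against day 10 gave 6 and 4, and the line difference between days 5 and 6. The line difference against monolayer gave 1 with median-ratio scaling, 3 without filter and 5 by DESeq2 at day 10 (0 as reported), and 2 and 3 without filter and by DESeq2 at day 20 (0). Among monolayers, all 16 libraries gave 14, 13 and 12 calls in HCC1806, CAL148 and ZR-75-30 (6, 0 and 4 as reported). CAL148 gave 6 without filter and 9 by DESeq2, and ZR-75-30 gave 10 and 9, and 1 with the replicate block. Shares of all genes called moved as well: for HCC1806 day 10 against monolayer they were 8.14% as reported, 9.3% without filter, 23.4% by DESeq2 and 3.47% in all 16 libraries, and for the HCC1806, CAL148 and ZR-75-30 monolayers 40.1%, 23.8% and 25.8% in all 16 libraries. The larger spread of the HCC1806 monolayers, part of these models, is given above; other causes were not tested.

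Leaving out 1 library at a time gave 0 to 26 calls for HCC1806 day 10 against monolayer, 0 to 24 at day 20, 5 to 14 for day 20 against day 10, 9 to 15, 5 to 13 and 0 to 5 for the same 3 comparisons in BT474, 24 to 28 and 21 to 25 between the lines at day 10 and day 20, 1 to 6 for the line difference between days, 0 to 24 and 0 to 21 for the line differences against monolayer, and 0 to 12, 0 to 8 and 0 to 10 for HCC1806, CAL148 and ZR-75-30 monolayers. A lone library was assumed to vary like the others, which does not hold for the HCC1806 monolayers. The log2 fold changes of some members turned with the HCC1806 monolayer left out, replicate 2 or replicate 1. At day 10 they ran between -1.02 and 0.71 for CD63, -0.85 and 0.66 for HEXA, -1.21 and 0.87 for MAP1LC3B, and -0.60 and 1.64 for CTSD. At day 20 they ran between -0.46 and 0.41 for CTSA, -1.504 and 0.74 for CTSD, -0.69 and 0.48 for GAA, -0.72 and 0.79 for HEXA, -1.07 and 1.01 for MAP1LC3B, and -1.33 and 0.71 for TFEB, and LIPA gave -0.37 without replicate 1.

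The replicate numbers did not pair the samples: same-numbered libraries had deviations correlated by -0.26 to 0.28 over 11715 genes, apart from -0.64 between HCC1806 and ZR-75-30 monolayers. The library of high mitochondrial share is replicate 1 in those HCC1806 monolayers and replicate 2 in those of ZR-75-30. Its part in this correlation was not tested. Apart from the calls above, the replicate block changed the counts to 5 (HCC1806 day 10 against monolayer), 13 (BT474 day 10) and 4 (HCC1806 against BT474 monolayers). With 2 libraries a group, members near the floor, CTSS in BT474 and ATG9B, have the least depth behind them.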

Other observations

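Other genes of the same pathways, from lists chosen with earlier results of these data known, were counted with the edgeR calls of the comparisons above, and stand beside the shares of all genes called; no test of a list was made. Of all genes, 4.59% were higher and 3.55% lower in HCC1806 day 10 spheroids against monolayers, 5.7% and 5.05% at day 20, and 2.88% and 3.28% at day 20 against day 10. In BT474, 7.51% were higher and 3.75% lower at day 10 against monolayers, and 6.56% and 6.91% at day 20. The HCC1806 calls against monolayers rest on the discordant monolayers, and a model of the HCC1806 libraries alone called no gene at day 10. All calls below depend on the set of libraries as those of the members do. How far they held when a library was left out is not given here. Of 25 other lysosomal hydrolases, 6 were higher and 0 lower in HCC1806 day 10 spheroids against monolayers, 5 and 0 at day 20, and 1 and 7 at day 20 against day 10. FUCA1, a fucosidase, averaged 176 CPM in HCC1806 day 10 spheroids and 32.8 CPM in monolayers (log2 fold change 2.42 ± 0.22, adjusted p = 0.00143), and 76.9 CPM at day 20 against 176 CPM at day 10 (-1.19 ± 0.11, adjusted p = 3.91e-06). GM2A, the activator of ganglioside breakdown, averaged 168 CPM at day 20 against 122 CPM at day 10 in HCC1806 (0.46 ± 0.09, adjusted p = 0.00416). In BT474, 9 hydrolases were higher and 2 lower at day 10 against monolayers, and 4 and 6 at day 20. GM2A averaged 95.3 CPM in BT474 day 10 spheroids and 46.9 CPM in monolayers (1.02 ± 0.09, adjusted p = 2.13e-06), and PPT1, a palmitoyl thioesterase, 79.9 CPM and 128 CPM (-0.68 ± 0.09, adjusted p = 0.000121).

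Of the 4 cathepsin inhibitors, 3 were higher in BT474 spheroids than in monolayers at either day. CST3 (cystatin C) averaged 496 CPM in day 10 spheroids and 180.0 CPM in monolayers (1.46 ± 0.09, adjusted p = 1.18e-07). In HCC1806, 0 were called against monolayers at either day, and 3 were lower at day 20 than at day 10, with CSTA at 89.1 CPM against 123 CPM (-0.47 ± 0.11, adjusted p = 0.0159). The autophagy kinase ULK1 was the highest called gene by fold of 21 core autophagy genes in all 4 comparisons with monolayers. It averaged 137 CPM in HCC1806 day 10 spheroids and 65.4 CPM in monolayers (1.06 ± 0.17, adjusted p = 0.0094), and 292 CPM in BT474 day 10 spheroids and 184 CPM in monolayers (0.66 ± 0.10, adjusted p = 0.000266). Of the 21, 2 were higher and 0 lower in HCC1806 at day 10, against 8.14% of all genes called, and 2 and 1 in BT474, against 11.3%, both near the share of all genes. Of 15 other proton pump genes, 1 was called in HCC1806 at either day against monolayers, ATP6V1A, at 111 CPM in day 10 spheroids and 55.6 CPM in monolayers (1.00 ± 0.26, adjusted p = 0.0495), against 8.14% and 10.7% of all genes called. In BT474, 2 were higher and 1 lower at day 10, and 0 and 2 at day 20, against 11.3% and 13.5%. These pump counts against monolayers are near the shares of all genes.

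Of 16 genes for other lysosomal membrane proteins and enzyme sorting, 3 were higher in HCC1806 spheroids at either day, led by the sorting receptor SORT1 (1.22 ± 0.16 at day 10, adjusted p = 0.00457). In BT474 the channel TPCN1 led 2 genes higher at day 10 (0.90 ± 0.10, adjusted p = 3.47e-05). Of 8 autophagy receptors, BNIP3, which marks mitochondria for autophagy, was lower in HCC1806 day 10 spheroids than in monolayers (-0.77 ± 0.19, adjusted p = 0.0381) and higher at day 20 than at day 10 (0.73 ± 0.12, adjusted p = 0.000946). In BT474, 3 receptors were higher at day 10 and 2 at day 20, led by BNIP3L (0.52 ± 0.10, adjusted p = 0.00202 at day 10). Of 10 regulators of lysosome formation, 2 were higher in HCC1806 spheroids at either day and 1 in BT474 spheroids at either day. Of 5 further cathepsins, 2 could be tested, and CTSO was higher in HCC1806 day 10 spheroids, at 9.06 CPM against 1.93 CPM (2.24 ± 0.45, adjusted p = 0.0209).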
